A study of Mus musculus with 4 samples.

Results

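The amino acid transporter genes examined here were the rows whose symbol belonged to the solute carrier families Slc1, Slc3, Slc6, Slc7, Slc36, Slc38 and Slc43 and ended in a plain number. They were 59 of 23746 gene rows, with 7 from Slc1, 2 from Slc3, 17 from Slc6, 15 from Slc7, 4 from Slc36, 11 from Slc38 and 3 from Slc43. The rule reads gene symbols and no measured values. RNA came from 4 primary mammary tumors of female mice, 2 of the genotype WapCre;Rank;Brca1;p53 (triple-mutant, tumors 26043 and 26044) and 2 of the genotype WapCre;Brca1;p53 (double-mutant, tumors 26048 and 26050). The comparison asked how loss of the receptor RANK alters such tumors. The Wap-driven Cre transgene deletes floxed alleles in luminal and basal mammary epithelial cells, so both genotypes lack Brca1 and p53 in those cells, and cells of the stroma are not targeted. The study describes triple-mutant tumors as intermediate in grade and double-mutant tumors as intermediate or high. The age of each animal and the grade of each sequenced tumor were not given in the sources used here, and each tumor is a mixture of cells. In bulk RNA, fewer cells of a type and less RNA per cell cannot be told apart. Levels are in FPKM, fragments scaled to transcript length and to all mapped fragments of the library, which allows levels to be compared between genes.

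Amino acid transporters set which amino acids enter a cell, leave it, or cross the lysosomal membrane. Many are exchangers that release one amino acid to bring in another, whereas others use the sodium or proton gradient to accumulate their substrate. In the mammary gland they feed milk protein synthesis, and in tumors they feed growth and the mTORC1 kinase complex, which senses amino acids at the lysosome. Some of them are induced when amino acids are scarce, through the transcription factor Atf4 and its binding element in target promoters. Several members of Slc6 carry other substrates, among them taurine, creatine, betaine and neurotransmitters, and Slc43a3 carries purine bases.

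Of the 59 genes, 31 reached at least 1 FPKM in at least 2 tumors and were tested, and 28 did not. limma was fitted to log2(FPKM + 1) of all 12752 genes that passed the same filter, and differences are given as triple-mutant minus double-mutant. Of the 31 transporters, 0 had an adjusted p under 0.05, as did 0% of all genes tested, and the smallest adjusted p among them was 0.342 (limma with Benjamini-Hochberg adjustment). An unadjusted p under 0.05 was found for 6 of the 31 transporters and for 9.82% of all genes tested. The genotypes overlapped in 16 transporters and did not in 15 (44.3% of all genes tested). Of the 15, 8 were higher in the triple-mutant pair (21.3% of all genes tested) and 7 in the double-mutant pair (22.9% of all genes tested), shares of the 31 that lie close to those of the whole table. A log2 fold change of at least 1 without overlap marked 3 genes higher in triple-mutant tumors (7.30% of all genes tested). A change of the same size without overlap marked 2 genes higher in double-mutant tumors (4.65% of all genes tested). The fold change compares group means, so the nearest tumors of the genotypes can be closer than that. The median log2 fold change was -0.05 over the 31 transporters and -0.02 over all genes tested. For 1 gene the smallest p of an exact two-sided permutation test with these 4 tumors is 0.333.

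As a check of the labels, the Rank gene (Tnfrsf11a) was at 2.07 and 0.96 FPKM in the triple-mutant tumors and at 10.6 and 11.9 FPKM in the double-mutant tumors (log2 fold change -2.32, adjusted p = 0.225 from limma). Brca1, floxed in both genotypes, was at 3.26 and 3.28 against 3.84 and 5.69 FPKM. Trp53, the p53 gene and also floxed in both, was at 15.7 and 87.8 against 150 and 103 FPKM, lowest in tumor 26043. Both alleles are shared by the genotypes, and a gene's FPKM does not show which exons the reads came from. The tumors also differed in cell type markers. Summed over 9 luminal markers, tumor 26044 had 501 FPKM and the other tumors had 2283 to 3086 FPKM. The list was split, with 5 of the 9 higher in both double-mutant tumors and 3 (Krt19, Esr1 and Pgr) in both triple-mutant tumors. Basal markers summed to 1751 and 1287 FPKM in triple-mutant and 73.0 and 48.9 FPKM in double-mutant tumors, in the order of tumor numbers. Of 7 tested basal markers 6 were higher in both triple-mutant tumors. The triple-mutant pair differed in their make-up. In tumors 26043 and 26044, Acta2 was at 64.8 and 898 FPKM, Krt5 at 596 and 114 FPKM, Krt14 at 611 and 42.5 FPKM and Trp63 at 28.5 and 48.1 FPKM. In the same order, alveolar milk genes summed to 187 and 17.0 FPKM against 1431 and 6646 FPKM (5 of 6 higher in both double-mutant tumors). Fibroblast markers summed to 196 and 112 against 881 and 425 FPKM (4 of 6), and macrophage markers to 237 and 159 against 568 and 342 FPKM (4 of 6). Adipocyte markers summed to 1420 FPKM in tumor 26048 and to 7.77, 261 and 32.0 FPKM in tumors 26043, 26044 and 26050. Endothelial markers ranged from 27.8 to 96.7 FPKM, highest in tumor 26044, and neural and glial markers from 11.1 to 77.7 FPKM, also highest there. Skeletal muscle markers were at 34.3 FPKM in tumor 26050 and at most 2.92 FPKM elsewhere, and the mast cell list at 22.3 to 121 FPKM, nearly all of it Kit, which epithelial cells also express. The part of these differences in the transporter values was not tested.

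The summed RNA of all 59 transporters was 542 and 771 FPKM in triple-mutant tumors 26043 and 26044 and 632 and 613 FPKM in double-mutant tumors 26048 and 26050. The genotypes thus overlapped, and the sum was lowest in one triple-mutant tumor and highest in the other. The 5 most abundant transporters made up 61.1% to 69.9% of the sum. Slc7a5, Slc3a2 and Slc38a2 were among the leading 5 in every tumor. The share held by Slc38 genes was 27.7% and 14.4% in triple-mutant and 35% and 33.7% in double-mutant tumors, so that these genotypes did not overlap. The shares of Slc1 (9.63% and 9.69% against 9.06% and 8.11%) and Slc3 (18.1% and 21.1% against 14.3% and 16.8%) did not overlap either. Nor did that of Slc6 (13.8% and 13.0% against 10.9% and 8.89%), and all of these were higher in triple-mutant tumors. Those of Slc36 and Slc43 overlapped, as did that of Slc7, at 26.9% and 34% against 24.3% and 30.3%. The shares are parts of one sum, so a lower share of one family raises the others. The plot of FPKM by tumor shows the 16 members that reached 20 FPKM in any tumor or differed by at least 1 log2 unit without overlap.

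**Figure D1:**
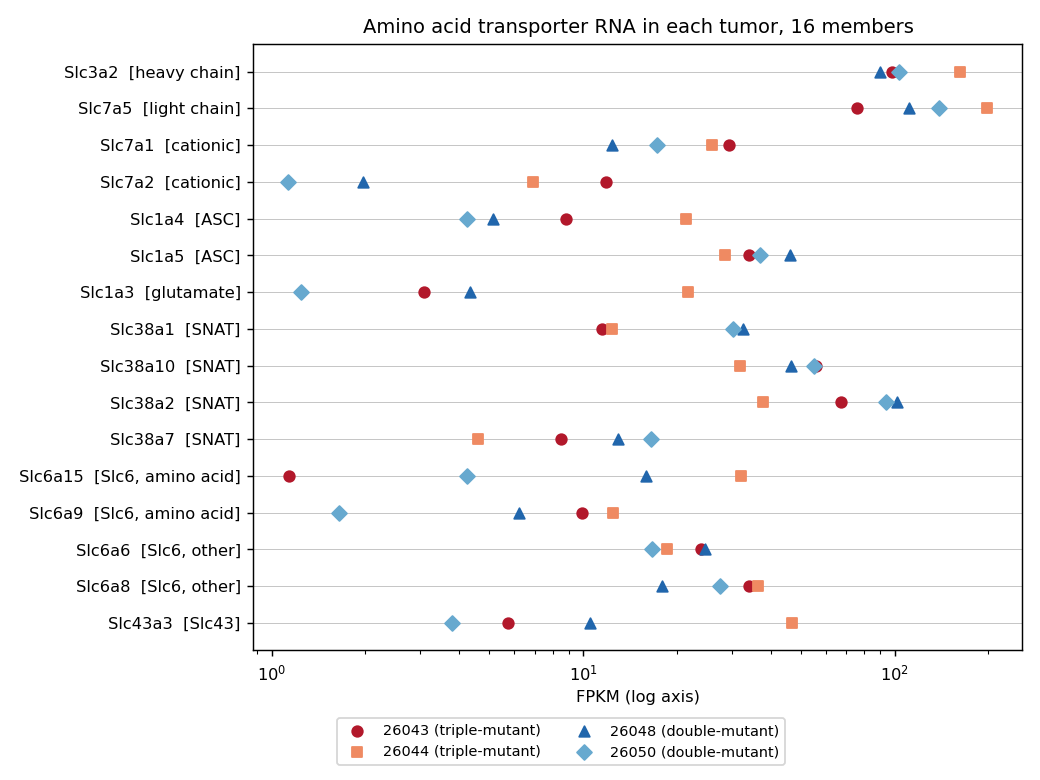
FPKM (log axis) of 16 transporter genes in each of the 4 tumors, 1 point per tumor, with the role of each gene in brackets. Slc7a2, Slc7a1 and Slc1a4 have both triple-mutant points to the right of both double-mutant points, Slc38a1, Slc38a2 and Slc38a7 have them to the left, and Slc7a5 spans 75.8 to 199 FPKM within the triple-mutant pair.

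The cationic amino acid transporters of Slc7, which bring arginine, lysine and ornithine into the cell, were higher in both triple-mutant tumors for 2 of the 3 tested members, too few to set against the 21.3% of all genes tested. Slc7a2, which supplies arginine in macrophages and epithelia among other cells, was at 11.9 and 6.92 FPKM in triple-mutant and at 1.97 and 1.13 FPKM in double-mutant tumors. The means were 9.40 ± 3.50 FPKM (SD, n = 2) and 1.55 ± 0.59 FPKM (SD, n = 2), a ratio of 6.06, and the log2 fold change was 2.0 (standard error 0.41, adjusted p = 0.342 from limma). It was the largest difference among the 31 transporters and did not pass the threshold. The gene lies on chromosome 8 from 40862367 to 40922070 (mm10, plus strand), where the 20 nearest tested genes, 10 on either side, had a median log2 fold change of -0.22. Of 6 macrophage markers 4 were lower in both triple-mutant tumors, and Csf1r and Cd14 overlapped. Their part in the Slc7a2 values was not tested.

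Slc7a1, the widely expressed arginine and lysine carrier (chromosome 5 from 148327410 to 148399904, minus strand), was at 29.4 and 26.0 FPKM in triple-mutant and at 12.4 and 17.2 FPKM in double-mutant tumors. Its log2 fold change was 0.87 (standard error 0.31, adjusted p = 0.500 from limma). The means were 27.7 ± 2.4 and 14.8 ± 3.4 FPKM (SD, n = 2 each), and the genotypes did not overlap. In tumors 26043 and 26048 its FPKM lay above the Cufflinks interval. Added together, Slc7a1 and Slc7a2 reached 41.3 and 32.9 FPKM against 14.4 and 18.3 FPKM. Slc7a4, an orphan member without known transport activity, overlapped between genotypes at 0.64 to 3.28 FPKM.

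The heteromeric exchangers consist of a heavy chain, which brings the complex to the membrane, and a light chain, which carries the substrate. Slc3a2, the heavy chain that partners most light chains, was at 97.9 and 163 FPKM in triple-mutant and at 89.9 and 103 FPKM in double-mutant tumors. Slc7a5, the light chain for leucine and other large neutral amino acids, was at 75.8 and 199 FPKM in triple-mutant and at 111 and 139 FPKM in double-mutant tumors. Both genes were highest in tumor 26044, and both overlapped between genotypes. The log2 fold change was 0.39 (standard error 0.35) for Slc3a2 and -0.02 (standard error 0.53) for Slc7a5, with adjusted p of 0.730 and 0.993 from limma. The sign of Slc7a5 rested on single tumors, since its log2 fold change was 0.67 without tumor 26043 and 0.15 without tumor 26050, and -0.71 was the lowest value with another tumor left out. The ratio of Slc7a5 to Slc3a2 FPKM was 0.77 in tumor 26043 and 1.22 to 1.35 in the other 3 tumors. In all 4 tumors the FPKM of Slc7a5 lay above the confidence interval that Cufflinks gave for it. At the interval midpoints Slc7a5 was at 47.2, 124, 72.8 and 90.9 FPKM, the ratio to Slc3a2 was 0.48 to 0.88, and tumor 26043 again had the lowest ratio.

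The other light chains went different ways. Slc7a7, which exchanges cationic for neutral amino acids and is prominent in macrophages and absorptive epithelia, was at 15.3 and 14.2 FPKM in triple-mutant and at 8.52 and 10.5 FPKM in double-mutant tumors. Slc7a6, a light chain of similar activity, was at 6.99 and 5.03 against 11.8 and 8.95 FPKM. Slc7a8, a second light chain for neutral amino acids, was at 2.03 and 1.18 against 3.94 and 3.94 FPKM. The genotypes did not overlap in any of the 3 genes, with Slc7a7 on the triple-mutant side and Slc7a6 and Slc7a8 on the double-mutant side. Their log2 fold changes were 0.59, -0.70 and -0.94, with adjusted p of 0.575, 0.568 and 0.500 from limma. Slc7a7 and Slc7a8 lie 305 kb apart on chromosome 14. The tested genes around them had median log2 fold changes of 0.68 at Slc7a7 and 0.51 at Slc7a8, so that Slc7a7 stood at -0.09 and Slc7a8 at -1.45 relative to their surroundings. Slc7a7 is overlapped on the other strand by Oxa1l, which was also higher in both triple-mutant tumors (35.4 and 36.2 against 16 and 25.3 FPKM). Whether Cufflinks was run with strand was not given in the sources used here, and reads of such overlapping genes may then be shared.

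**Figure D2:**
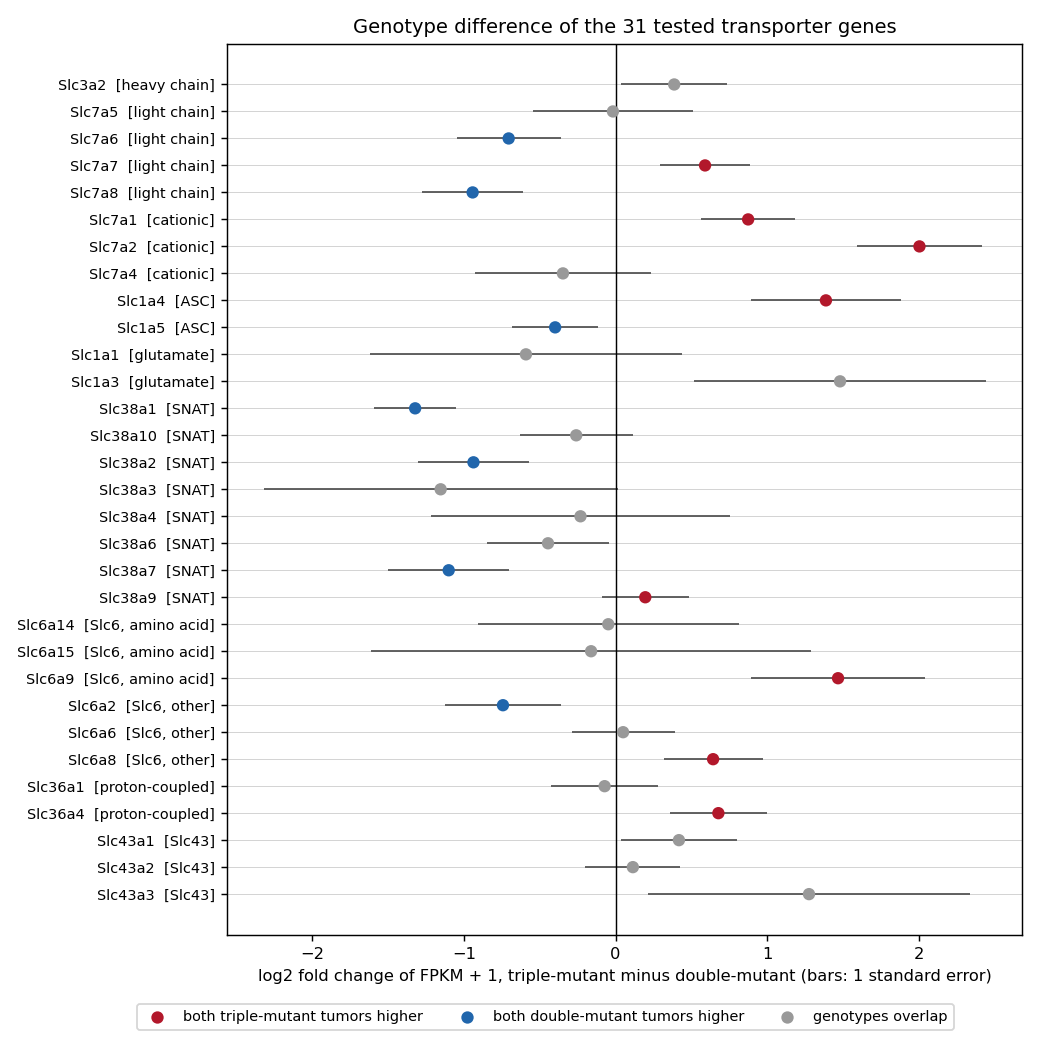
Log2 fold change of FPKM + 1 (triple-mutant minus double-mutant) of the 31 tested transporters, ordered by role, with bars of 1 standard error from limma and colors for genes whose genotypes do not overlap. Slc7a2 is farthest to the right at 2.0 and Slc38a1 farthest to the left at -1.32, and the bars of Slc6a15, Slc1a1, Slc38a3 and Slc43a3 each exceed 1 log2 unit.

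The remaining chains of this group were low. Slc7a11, the cystine-glutamate exchanger that feeds glutathione synthesis, was between 0.22 and 0.61 FPKM in all 4 tumors, and Slc3a1, the heavy chain of the renal cystine transporter, between 0.05 and 0.22 FPKM. Slc7a9 and Slc7a12 were listed at 0 in every tumor.

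Of the neutral amino acid exchangers of Slc1, which swap alanine, serine, cysteine and, for Slc1a5, glutamine, the 2 genes stood on opposite sides. Slc1a4 was at 8.84 and 21.4 FPKM in triple-mutant and at 5.15 and 4.24 FPKM in double-mutant tumors. Slc1a5 was at 34 and 28.6 FPKM in triple-mutant and at 46.2 and 37.1 FPKM in double-mutant tumors. The genotypes did not overlap in either gene, although tumors 26043 and 26050 were close for Slc1a5. The log2 fold change was 1.39 (standard error 0.49) for Slc1a4 and -0.40 (standard error 0.29) for Slc1a5, with adjusted p of 0.500 and 0.668 from limma. Slc1a4 was 0.79 without tumor 26044, which had the higher value of its pair. Slc1a5 lay above its Cufflinks interval in all 4 tumors, and Slc1a4 above its own in both triple-mutant tumors.

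The Atf4-binding element, known as the CARE and searched as TGATGNAAN on both strands, was present at the start site of Slc1a4. Of the 59 transporters 41 had promoter windows in the RefSeq table (GRCm38.p6, 250 bases before to 50 after each start), and 3 of the 41 held the element, namely Slc1a4, Slc7a7 and Slc7a11. The element was held by 4.50% of all 27025 genes with windows there. Stretches with these matches are shown because the genes share the element and differ in level, with Slc1a4 and Slc7a7 higher in both triple-mutant tumors and Slc7a11 under 1 FPKM in every tumor. Capitals mark the matches, all genes are on the minus strand, and positions count from the RefSeq start site at +1. The site of Slc1a4 spans chr11:20332699-20332728, those of Slc7a7 lie in windows of 2 different start sites at chr14:54418022-54418141 and chr14:54417833-54417952, and the stretch of Slc7a11 is chr3:50443614-50443733.
Slc1a4: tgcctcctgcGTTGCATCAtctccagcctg
Slc7a7, upstream start: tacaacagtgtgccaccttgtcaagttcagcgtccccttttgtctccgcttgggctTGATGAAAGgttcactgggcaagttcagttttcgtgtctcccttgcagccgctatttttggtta
Slc7a7, downstream start: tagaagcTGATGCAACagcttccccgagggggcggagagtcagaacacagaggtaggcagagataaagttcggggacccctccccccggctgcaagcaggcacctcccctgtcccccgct
Slc7a11: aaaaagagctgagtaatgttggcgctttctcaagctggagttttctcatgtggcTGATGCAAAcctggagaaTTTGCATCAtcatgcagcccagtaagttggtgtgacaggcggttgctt
In Slc7a11 the element occurred in both orientations, starting at -66 and -48. The antioxidant element TGACNNNGC was found in 8 of the 41 genes and in 14% of all genes of the table, and the E-box CACGTG in 8 of the 41 and in 8.09%. A match describes the letters of the window only. Slc7a2, Slc7a5 and Slc38a1 were not among the 41.

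The sodium-coupled neutral transporters of Slc38 carry glutamine, alanine and other small neutral amino acids. Of 8 tested genes 3 were higher in both double-mutant tumors (22.9% of all genes tested), 1 was higher in both triple-mutant tumors (21.3% of all genes tested) and 4 overlapped, and their median log2 fold change was -0.69. Slc38a1, a glutamine importer of proliferating cells, was at 11.5 and 12.4 FPKM in triple-mutant and at 32.5 and 30.2 FPKM in double-mutant tumors. Slc38a2, a carrier of small neutral amino acids that is induced by amino acid starvation, was at 67.4 and 37.9 FPKM in triple-mutant and at 102 and 93.5 FPKM in double-mutant tumors. Both tumors of a genotype were alike for Slc38a1, with means of 11.9 ± 0.6 and 31.4 ± 1.6 FPKM (SD, n = 2 each), whereas the triple-mutant pair differed for Slc38a2, which also lay below its Cufflinks interval in 3 of 4 tumors (midpoints 73.4 and 48.0 against 102 and 97.7 FPKM). The log2 fold change of Slc38a1 was -1.32 (standard error 0.27, adjusted p = 0.342 from limma), and it ran from -1.38 to -1.18 over all alternative settings. That of Slc38a2 was -0.94 (standard error 0.37, adjusted p = 0.519 from limma). The genes are neighbors 44.5 kb apart on chromosome 15, from 96571418 to 96642913 and from 96687392 to 96699698, both on the minus strand. Tested genes around them had a median log2 fold change of -0.14. Slc38a4, the next gene of the family 295 kb further on, overlapped between genotypes and was at 2.44 and 0.20 against 4.51 and 0.03 FPKM.

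Slc38a7, a glutamine carrier of the lysosome (chromosome 8 from 95835923 to 95853491, minus strand), was at 8.52 and 4.58 FPKM in triple-mutant and at 13.0 and 16.5 FPKM in double-mutant tumors. Its log2 fold change was -1.10 (standard error 0.40, adjusted p = 0.503 from limma). The tested genes around it had a median of -0.70, so that its log2 fold change relative to them was -0.40, and the part of the region in this difference was not tested. In all 4 tumors its FPKM lay above the Cufflinks interval, whose midpoints were 6.18 and 3.59 against 10.5 and 12.7 FPKM. Of the 9 Slc38 genes with promoter windows, which leave out Slc38a1 and Slc38a3, Slc38a7 and Slc38a5 held an E-box, and Slc38a5 was below the filter. The match starts 34 bases before the start site and is shown in capitals in chr8:95853492-95853611 (GRCm38.p6, minus strand).
Slc38a7: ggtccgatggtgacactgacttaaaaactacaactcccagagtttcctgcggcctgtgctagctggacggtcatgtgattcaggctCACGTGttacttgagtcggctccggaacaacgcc

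The other tested Slc38 genes showed smaller or less even differences. Slc38a9, the lysosomal arginine sensor upstream of mTORC1, was at 1.33 and 1.37 against 1.02 and 1.09 FPKM, a log2 fold change of 0.20. Slc38a10 was at 55.8 and 31.8 FPKM in triple-mutant and at 46.5 and 55.3 FPKM in double-mutant tumors, and its log2 fold change of -0.26 turned to 0.14 without tumor 26044. Slc38a6 ranged from 0.93 to 2.93 FPKM. Slc38a3, a glutamine carrier of liver, kidney and brain, was at 0.95 and 17.3 FPKM in triple-mutant and at 18.5 and 8.05 FPKM in double-mutant tumors, so that tumor 26043 stood below the others.

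Among the Slc6 carriers of amino acids, Slc6a9, a glycine transporter, was at 9.89 and 12.4 FPKM in triple-mutant and at 6.24 and 1.64 FPKM in double-mutant tumors. Its log2 fold change was 1.47 (standard error 0.57, adjusted p = 0.516 from limma), and it was 0.74 without tumor 26050, the lowest of the 4. Its FPKM lay outside the Cufflinks interval in every tumor. The gene (chromosome 4 from 117835258 to 117869305, plus strand) is overlapped on the other strand by Ccdc24 and B4galt2, and B4galt2 was also higher in both triple-mutant tumors (7.27 and 20 against 5.91 and 4.23 FPKM). Slc6a15, a carrier of branched-chain amino acids and proline best known from brain, was at 1.14 and 32.1 FPKM in triple-mutant and at 15.9 and 4.25 FPKM in double-mutant tumors. The members of each pair thus differed from each other by more than the genotypes did. Its log2 fold change of -0.16 (standard error 1.45) became 1.81 without tumor 26043 and 0.68 without tumor 26048. Slc6a14, a broad sodium- and chloride-coupled carrier of milk-secreting and other epithelia, was at 4.23 and 0.03 against 0.90 and 2.02 FPKM and overlapped.

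Of the Slc6 genes for other substrates, 3 were tested. Slc6a8, the creatine transporter, was at 34 and 36.5 FPKM in triple-mutant and at 17.9 and 27.5 FPKM in double-mutant tumors. It had a log2 fold change of 0.64 (adjusted p = 0.577 from limma). Slc6a6, the taurine transporter, was at 23.9 and 18.6 FPKM against 24.7 and 16.7 FPKM, a log2 fold change of 0.05 whose sign changed without tumor 26043 or tumor 26050. Slc6a2, the noradrenaline transporter, was at 0.82 and 0.38 against 2.34 and 1.11 FPKM. The creatine transporter did not overlap between genotypes, the noradrenaline transporter did not overlap on the other side, and the taurine transporter overlapped.

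The proton-coupled carriers of Slc36, which export small amino acids from lysosomes or take them up at the cell surface, had 2 tested members. Slc36a4 was at 3.72 and 4.24 FPKM in triple-mutant and at 2.50 and 1.76 FPKM in double-mutant tumors (log2 fold change 0.68, adjusted p = 0.561 from limma), without overlap. Slc36a1 overlapped between 3.46 and 5.33 FPKM. All 3 Slc43 genes overlapped, with Slc43a1 and Slc43a2, facilitative carriers of large neutral amino acids, at 0.38 to 1.61 and at 3.36 to 4.30 FPKM.

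Several transporters differed more between tumors of the same genotype than between genotypes, mostly through tumor 26044. Slc43a3 was at 5.75 FPKM in tumor 26043 and at 47.0 FPKM in tumor 26044, against 10.5 and 3.79 FPKM in double-mutant tumors. Slc1a3, a glutamate transporter of glia and some macrophages and mesenchymal cells, was at 3.09 and 21.8 FPKM against 4.33 and 1.25 FPKM. In tumor 26044 the FPKM of Slc1a3 lay below its Cufflinks interval (midpoint 27.2 FPKM). That of Slc43a3 lay above its interval in every tumor but 26050 (midpoint 38.2 FPKM in tumor 26044). Slc1a1, the epithelial and neuronal glutamate transporter, was at 4.99 and 0.23 FPKM against 1.11 and 6.89 FPKM. Tumor 26044 was the highest for Slc43a3 and Slc1a3 and the lowest for Slc1a1. Without it the log2 fold change of Slc43a3 went from 1.28 to -0.14, and that of Slc1a3 from 1.48 to 0.24. Of the 31 tested transporters 10 were highest and 12 were lowest in tumor 26044, and no matching share over all genes tested was computed. In this tumor the sum of luminal markers was lowest, and the sums of endothelial and of neural and glial markers were highest.

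The triple-mutant tumors differed from each other by a median of 0.70 log2 units over the 31 transporters and 0.45 over all genes tested. The corresponding values for the double-mutant pair were 0.44 and 0.36. A difference of at least 1 log2 unit was present in 10 of the 31 transporters within the triple-mutant pair (21.0% of all genes tested) and in 7 of 31 within the double-mutant pair (11.7% of all genes tested). Between genotypes the median absolute log2 fold change was 0.59 over the transporters and 0.38 over all genes tested. Each of these medians was larger over the transporters than over all genes, a difference that was not tested.

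**Figure D3:**
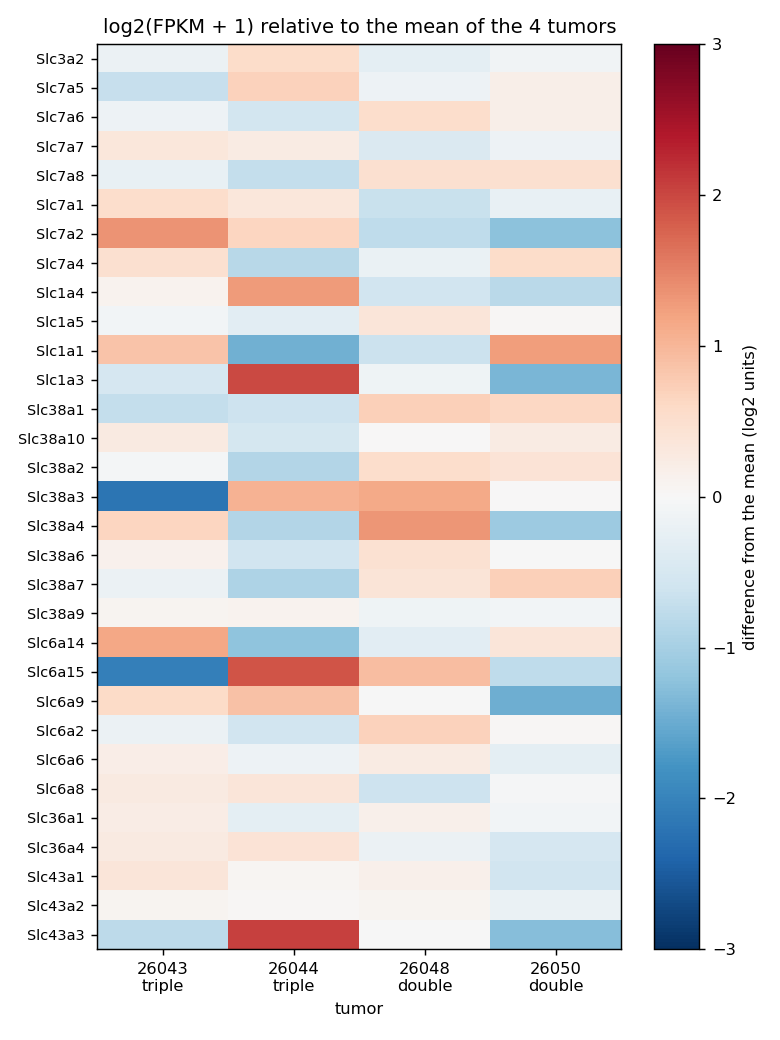
Log2(FPKM + 1) of the 31 tested transporters in each tumor, minus the mean of the 4 tumors, in the order of the roles, with red above and blue below that mean. Slc1a3, Slc6a15 and Slc43a3 are strongest in the column of tumor 26044, and Slc38a3 and Slc6a15 are weakest in that of tumor 26043.

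Of the 28 transporters that did not pass the filter, 22 stayed under 1 FPKM in all tumors, with a highest value of 0.91 FPKM, and 4 of them (Slc6a5, Slc6a11, Slc7a9 and Slc7a12) were listed at 0 throughout. The other 6 reached 1 FPKM in a single tumor and have no test. Slc36a2, a proton-coupled carrier of glycine, alanine and proline that is known from fat and kidney, was at 17.5 FPKM in double-mutant tumor 26048 and at 0.06 to 0.13 FPKM in the other 3 tumors. Slc7a10, a light chain for small neutral amino acids that is known from fat and brain, was at 1.51 FPKM in tumor 26048, 0.99 FPKM in tumor 26044 and at most 0.04 FPKM in the others. The adipocyte genes Adipoq and Plin1 were at 56.0 and 31.4 FPKM in tumor 26048, while Adipoq was at most 0.83 FPKM and Plin1 at most 0.21 FPKM in the other 3. Fabp4 of the same list was at 1263 FPKM in tumor 26048 and also at 261 FPKM in tumor 26044, where Slc36a2 was at 0.13 FPKM. Of the 6 adipocyte markers, Adipoq, Plin1, Cidec and Retn were above 1 FPKM in tumor 26048 alone, as was Slc36a2, and their part in its level was not tested. In tumor 26044, Slc7a3, a cationic carrier of neurons, was at 8.28 FPKM, Slc38a5, a glutamine carrier, at 4.29 FPKM and Slc1a6, a neuronal glutamate transporter, at 2.07 FPKM. The highest values of these 3 genes elsewhere were 0.43, 0.21 and 0.06 FPKM. Slc1a2, the main glial glutamate transporter, was at 1.16 FPKM in tumor 26043 and at 0.49 FPKM or less in the others.

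**Figure D4:**
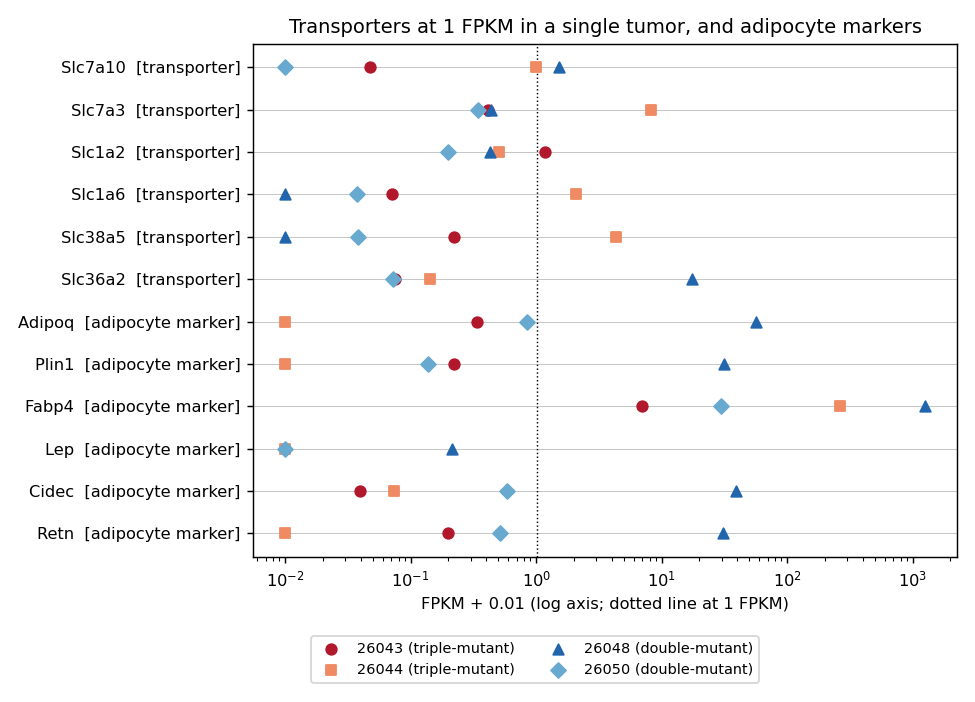
FPKM + 0.01 (log axis) in each tumor of the 6 transporters that reached 1 FPKM in a single tumor, and of the 6 adipocyte markers. Slc36a2, Adipoq, Plin1, Cidec and Retn are above the dotted line at 1 FPKM in tumor 26048 alone, Fabp4 is above it in all 4 tumors and Lep in none, and Slc7a3, Slc38a5 and Slc1a6 in tumor 26044 alone.

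Genes that use, sense or otherwise move amino acids were read in the same fit, from hand-written lists, and 0 of their tested genes had an adjusted p under 0.05. The counts of each list are to be read against 21.3% of all genes tested that were higher in both triple-mutant and 22.9% that were higher in both double-mutant tumors. Of 14 tested amino acid transporters outside the families above, 4 were higher in both triple-mutant tumors and 0 in both double-mutant tumors, led by Slc25a29, a mitochondrial carrier of basic amino acids (3.29 and 3.24 against 0.98 and 1.81 FPKM), and Slc15a4, a lysosomal histidine and peptide carrier (37.1 and 12.5 against 11.7 and 12 FPKM). The amino acid response genes were split. Of 27 tested genes 6 were higher in both triple-mutant and 4 in both double-mutant tumors, with a median log2 fold change of 0.16. Cbs and Psph, enzymes of cysteine and serine synthesis, each had a log2 fold change of 1.33, whereas Trib3, a pseudokinase induced by Atf4, was at 10.2 and 22.3 against 64.9 and 43.1 FPKM (log2 fold change -1.74). Eif4ebp1, which restrains translation, had -0.53. The response genes thus stood on both sides.

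Genes of serine and glycine metabolism had 1 of 14 higher in both triple-mutant and 8 of 14 higher in both double-mutant tumors, where all genes tested had 21.3% and 22.9%. Their median log2 fold change was -0.39, and the difference from all genes was not tested. They included Dld and Amt of the glycine cleavage system, with log2 fold changes of -1.15 and -1.08, while Psph was on the other side. Tested genes around Dld had a median of -0.68. Breakdown of branched-chain amino acids had 0 and 5 of 15, with Dld again and Bcat2, a mitochondrial transaminase (19.6 and 29.98 against 36.3 and 60.9 FPKM). For glutamine and glutamate metabolism the counts were 2 and 2 of 17, with Abat and Oat at 1.70 and 0.78 and Got2 and Gfpt1 at -0.74 and -0.67 log2 units. Glutathione synthesis had 3 and 0 of 11, with Ggt5 and Ggt6 of the gamma-glutamyltransferase family at 1.78 and 0.89 log2 units, and Ggt5 was at 1.33 and 12.8 FPKM in the triple-mutant pair. The tested genes around Ggt5 had a median of 1.68, close to its own value.

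In polyamine and arginine metabolism, which uses the arginine that Slc7a1 and Slc7a2 carry, 2 of 13 genes were higher in both triple-mutant and 2 in both double-mutant tumors. Amd1, the decarboxylase that supplies spermidine synthesis, was at 42.9 and 106 against 2.86 and 13.0 FPKM, a log2 fold change of 3.22 in a region whose tested genes had a median of 2.09. A near-identical copy, Amd2, makes its level uncertain. Oaz1, the antizyme that restrains polyamine uptake and synthesis, had 0.83, and Sms and Odc1, the spermine synthase and the ornithine decarboxylase, had -1.77 and -0.54. Of the 25 tested genes of amino acid sensing for mTORC1, 8 were higher in both triple-mutant (21.3% of all genes tested) and 3 in both double-mutant tumors (22.9% of all genes tested), with a median of 0.24. Sesn1, a stress-induced sestrin, was at 12 and 180 against 7.0 and 3.86 FPKM, also in a region with a median of 2.07. Gatsl3, the symbol in these files for the arginine sensor Castor1, was at 5.42 and 8.53 against 1.80 and 1.68 FPKM. Gatsl2, its relative Castor2, was at 8.08 and 8.67 against 1.53 and 1.15 FPKM (log2 fold change 2.01, adjusted p = 0.220 from limma). Depdc5 and Wdr59, subunits of complexes that relay amino acid levels, each had -0.47.

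**Figure D5:**
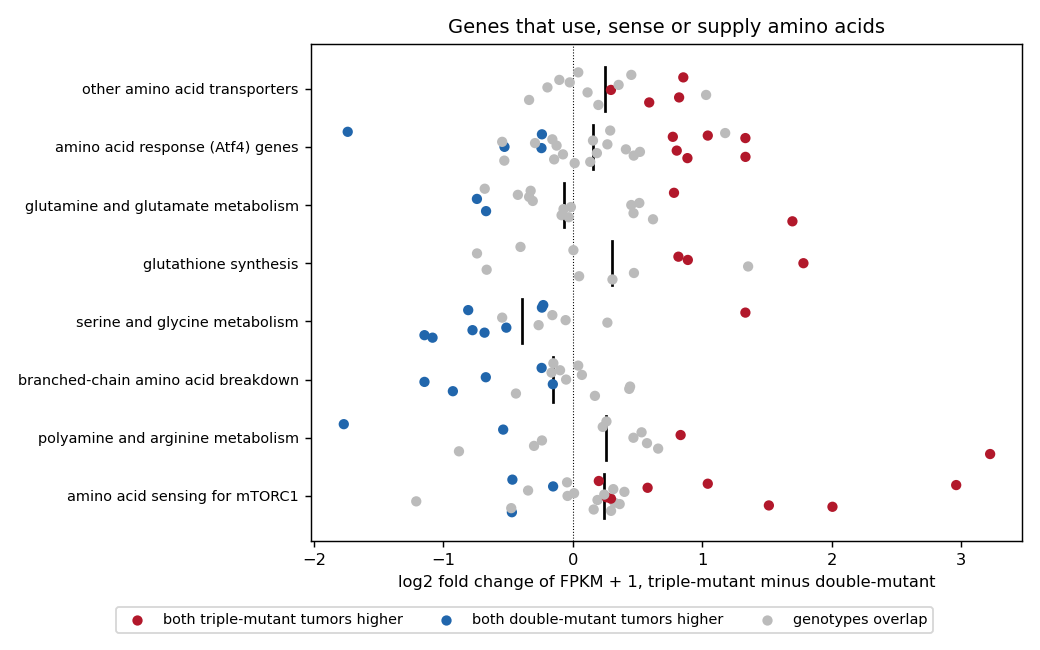
Log2 fold change of FPKM + 1 (triple-mutant minus double-mutant) of the tested genes of 8 amino acid lists, 1 point per gene, with a black bar at the median of each list and colors for genes whose genotypes do not overlap. The median is lowest for serine and glycine metabolism, at -0.39, and the points farthest to the right are Amd1 at 3.22 and Sesn1 at 2.96.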

How the data were processed

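PolyA RNA was purified from 4 tumors, and dUTP libraries were sequenced as 50-bp single-end reads. The authors aligned reads with Tophat 2.0.10 and bowtie 0.12.9 (mm10 per the submitters' processing notes) and deposited FPKM per gene from Cufflinks 2.1.1, with interval bounds in FPKM. Read counts were not used here. Which annotation was used is not given in the sources used here.

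The 4 tables were joined on symbol and position (23746 rows). Starts, which count from 0, were raised by 1, and all 59 transporters overlapped the same gene of GENCODE M21 (GRCm38). Genes that reached 1 FPKM in 2 or more tumors were tested on log2(FPKM + 1) with limma 3.58.1 in R 4.3.3 (eBayes with a trend, Benjamini-Hochberg adjustment, threshold 0.05). The fit was run on simulated data with the same spread for every gene. Its behavior under the uneven spread of these tumors was not checked in that way. A fold change on this scale understates the change of low genes. The study calls the females littermates, and which tumors shared a litter is not given in the sources used here, so p-values measure the spread between these 4 samples. Depth is unknown, because FPKM keeps no plain record of read numbers. For transporters of at least 1 FPKM, the half-width of the Cufflinks interval had a median of 7.88% to 10.8% of the midpoint, and 8 to 13 of these transporters per tumor lay outside their own interval.

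Members and gene lists were chosen with earlier results of these data known. Values are given per tumor for transporters that reached 20 FPKM or differed by 1 log2 unit without overlap, for other members where they help describe a role, and for the 2 genes of largest difference on each side of the other lists. Castor1 and Slc66a1 were read under their older symbols Gatsl3 and Pqlc2, and Lamtor1, Lamtor4, Lamtor5 and Samtor had no row under those symbols. Joins were made in Python 3.11.15 with pandas 2.3.3, and plots with matplotlib 3.10.9. 1 marker list is not reported here.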

Additional observations from a re-analysis of the deposited data

How the results depend on the processing

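Across 14 alternative settings, 213 of 223 log2 fold changes of the 16 transporters described by value kept their side of zero and of the threshold, and 11 of the 16 genes never changed sign. No transporter had an adjusted p under 0.05 in limma under any setting with a test. The count over all genes moved from 0 to 6 with quantile normalization, 5 without limma's trend and 1 at interval midpoints. With a pseudocount of 0.1, 4 transporters differed by at least 1 log2 unit toward double-mutant tumors without overlap, in place of 2. Without a filter, 14 transporters were higher in both triple-mutant and 11 in both double-mutant tumors, in place of 8 and 7. Leaving out 1 tumor, which leaves a genotype with a single tumor assumed to vary like the others and makes overlap rarer by construction, gave 9 to 14 and 9 to 13. The counts of at least 1 log2 unit were then 3 to 6 on the triple-mutant and 3 to 7 on the double-mutant side, the highest of both without tumor 26043. With each tumor left out the log2 fold change ran from -0.65 to 0.14 for Slc38a10, from -0.14 to 2.69 for Slc43a3, from -2.14 to 1.81 for Slc6a15, from -0.22 to 0.32 for Slc6a6 and from -0.71 to 0.67 for Slc7a5. Relative to neighboring genes Slc6a6 was at -0.26 and Slc7a5 at 0.28. The median over the transporters stayed between -0.12 and 0.18, and the ratio of summed FPKM, triple-mutant over double-mutant, between 0.87 and 1.24 around 1.05. No paired analysis was possible because the labels give no number shared by tumors of both genotypes and do not say which littermates they came from.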
